A study of Drosophila melanogaster with 3 samples.

Results

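The mitochondrial ribosomal protein genes of Drosophila melanogaster were followed in ovaries with an sva53 mutant germ line. They were taken by symbol: every feature of the value table whose annotation gave exactly 1 gene symbol beginning with mRpL or mRpS was used, which gave 65 genes of 10805 named genes on the array. Of these, 44 carried a large subunit symbol (mRpL) and 21 a small subunit symbol (mRpS). They were measured by 75 features, 1 feature for 55 genes and 2 features for 10 genes, and no array value of theirs was exactly 0. All 65 matched the RefSeq gene table by gene identifier. A further 8 genes of that table with such symbols (mRpL34, mRpL47, mRpL53, mRpS5, mRpS14, mRpS21, mRpS23 and mRpS34) had no feature under a single symbol and were not analysed here as members.

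Mutant ovaries carried a germ line from pole cells of sva53[M1] embryos, made from homozygous germline clones with the FLP/FRT/DFS system. Control ovaries carried a germ line from sva53/+ pole cells. In both, the pole cells were transplanted into hosts laid by osk-homozygous females, whose embryos form no pole cells of their own, so follicle cells and other somatic cells of the ovary were those of the host in both kinds of sample. Flies were about 7 days old. Each of 3 mutant samples came from a separate experiment and held 2 pairs of ovaries (n = 3), and each was hybridised in Cy3 on its own array against 1 control RNA from 3 pairs of ovaries in Cy5. Values are log2 ratios of sva53 over sva53/+. The numerator of the deposited ratio is not stated in the labels; it was read as Cy5 over Cy3, as the software that made it writes it, and if it was Cy3 over Cy5 every sign below turns. The control RNA is the same on all arrays, so a deviation of that RNA, or a dye bias of a feature, appears on all 3 arrays alike and cannot be told apart from an effect of the mutant germ line. A ratio holds no level, so the ovary label could not be checked against markers. In RNA of whole ovaries, fewer cells of a type and less RNA per cell cannot be told apart.

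Mitochondria keep ribosomes of their own, which translate the few messages of the mitochondrial genome, all for subunits of the respiratory chain and ATP synthase. Their RNAs are made in the mitochondrion, whereas their proteins are encoded in the nucleus, made in the cytosol and imported. Part of these proteins descend from bacterial ribosomal proteins, and the others were added in the mitochondrial lineage. In the fly ovary, mitochondria multiply in the germ line and are passed on through the oocyte.

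Of the 65 genes, 13 were lower in sva53 ovaries, 0 were higher and 52 did not pass (limma, adjusted p under 0.05 over all 15415 features tested). Of all features tested, 7.23% were called lower and 6.62% higher. The median SD over arrays was 0.077 for the members and 0.118 for all features tested, so these shares compare genes of unlike spread. At an unadjusted p under 0.05, 25 of the 65 genes lay lower and 3 higher, beside 18.3% and 18.0% of all features tested. All called changes were small, between 1.21-fold and 1.39-fold, and 0 members fell by 2-fold or more. The median of the 65 gene means was -0.11 log2, beside -0.003 for all features tested. The members lay below 0 on all 3 arrays in 35 genes (53.8%) and above 0 on all 3 in 6 genes, while 24 had mixed signs; of all features tested, 29.9% lay below 0 on every array. When limma was run on 2 of the 3 arrays, 0 features and so 0 members passed, while 16 to 19 members were lower at an unadjusted p under 0.05, as were 10.6% to 15.9% of all features tested. With array weights 23 members were lower and 3 higher, and 19% of all features were called lower (5804 called in all, against 2135 without weights).

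**Figure D1:**
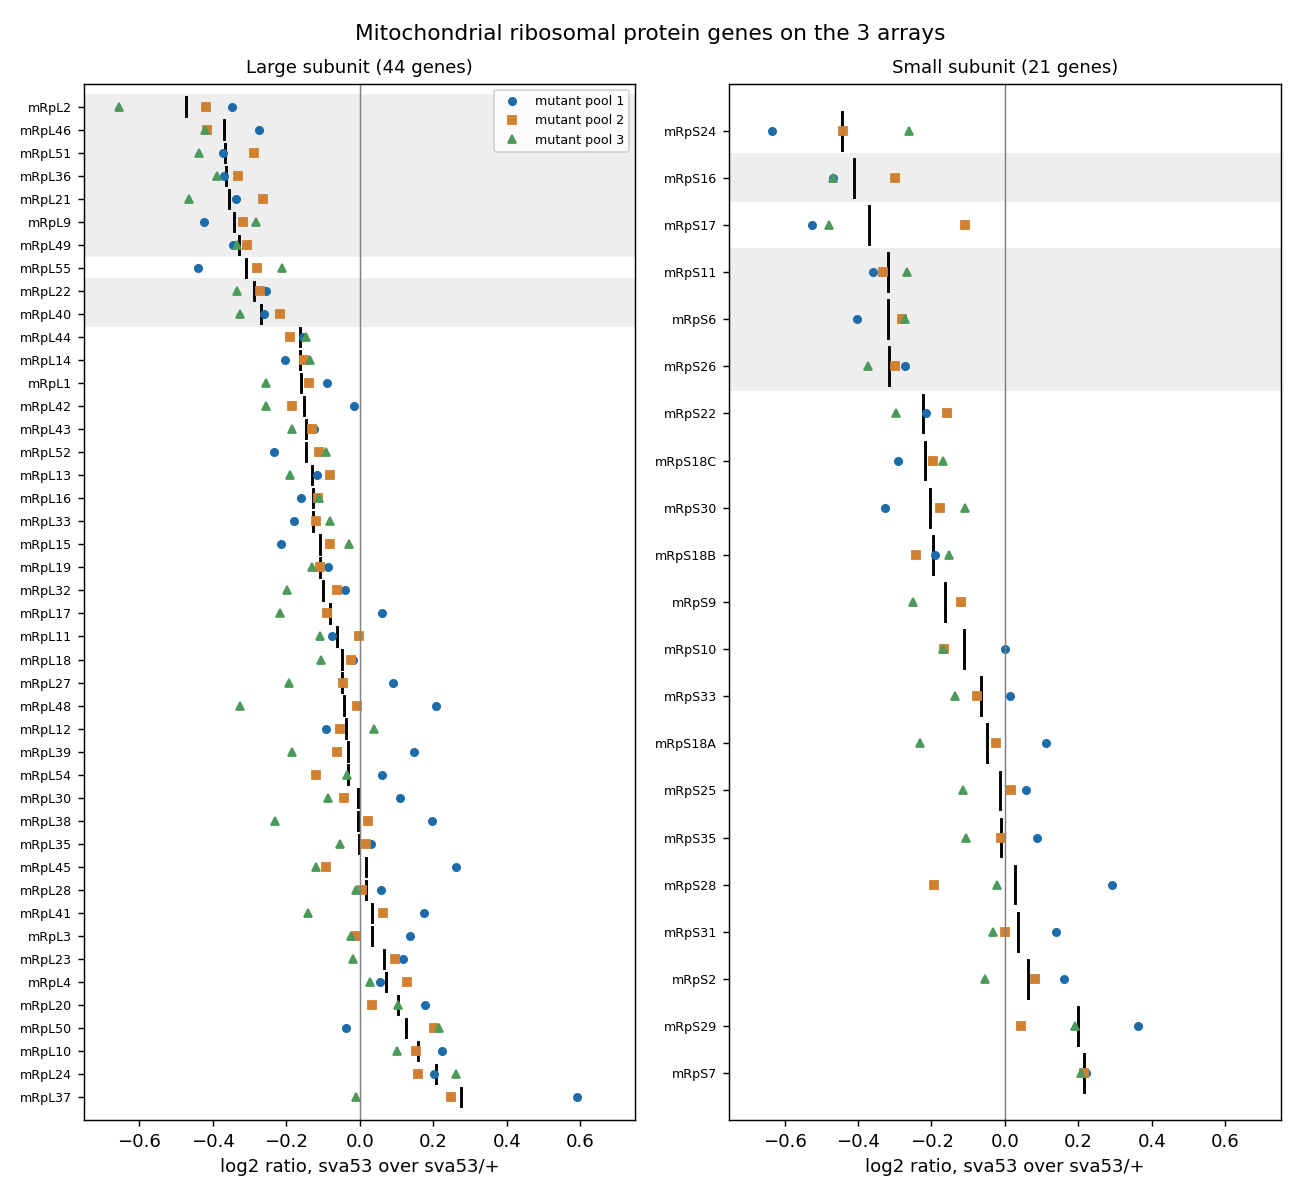
Log2 ratio of sva53 over sva53/+ (horizontal axis) for each of the 65 mitochondrial ribosomal protein genes, with the large subunit on the left and the small subunit on the right, ordered by mean. Symbols are the 3 mutant pools, black bars the means, and grey bands the 13 genes called lower with limma; all 13 lie below 0 on every array, and the genes with means near 0 often have pool 1 on the right and pool 3 on the left.

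Large subunit proteins with bacterial counterparts gave 5 of the 13 calls. mRpL2, whose bacterial counterpart lies close to the peptidyl transferase centre, had the lowest mean of all members. It read -0.35, -0.42 and -0.66 in mutant pools 1, 2 and 3, a mean of -0.47 ± 0.16 log2 (SD, n = 3; 1.39-fold lower; adjusted p = 0.0431 with limma). All 3 pools lay below 0, and pool 3 lay furthest from the others. mRpL36, a small protein that binds zinc in bacteria, read -0.37, -0.33 and -0.39 (mean -0.36 ± 0.03; adjusted p = 0.0352), and its pools differed little. mRpL21 read -0.34, -0.26 and -0.46 (mean -0.36 ± 0.10; adjusted p = 0.0443). mRpL9, whose bacterial counterpart reaches out from the base of the L1 stalk, read -0.42, -0.32 and -0.28 (mean -0.34 ± 0.07; adjusted p = 0.0405). Both stayed below 0 in every pool, with the lowest value in pool 3 for mRpL21 and in pool 1 for mRpL9. mRpL22, whose bacterial counterpart lines the tunnel through which the new chain leaves, read -0.26, -0.27 and -0.33 (mean -0.29 ± 0.04; adjusted p = 0.043).

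Large subunit proteins numbered above 36, a range with no bacterial counterpart under the same number, gave 4 calls. mRpL46 and mRpL40, which in mammals belong to the central protuberance of the subunit, were both lower. mRpL46 read -0.27, -0.42 and -0.42 (mean -0.37 ± 0.08; adjusted p = 0.0391 with limma), and mRpL40 read -0.26, -0.22 and -0.33 (mean -0.27 ± 0.06; adjusted p = 0.0489). mRpL40 was the call nearest to the threshold, and it did not pass with a robust prior (adjusted p = 0.0515) or after removal of grid trends (0.0665). mRpL51 read -0.37, -0.29 and -0.44 (mean -0.37 ± 0.07; adjusted p = 0.0382). mRpL49 read -0.35, -0.31 and -0.33, a mean of -0.33 ± 0.02 (adjusted p = 0.0372), with the narrowest spread over pools among the called genes. mRpL55, with a mean of -0.31 ± 0.12, did not pass (adjusted p = 0.0581). It passed with scaled arrays, array weights, the feature of smallest SD and after removal of grid trends.

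In the small subunit 4 genes were lower. mRpS16, whose bacterial counterpart joins the body of the subunit early in assembly, read -0.47, -0.30 and -0.47 (mean -0.41 ± 0.10; 1.33-fold lower; adjusted p = 0.038 with limma). mRpS11 and mRpS6, both counterparts of proteins of the bacterial platform, had nearly the same mean. mRpS11 read -0.36, -0.33 and -0.27 (mean -0.32 ± 0.05; adjusted p = 0.0391), and its 2 features gave -0.35 and -0.28. mRpS6 read -0.40, -0.28 and -0.27 (mean -0.32 ± 0.07; adjusted p = 0.0433), with pool 1 lowest. mRpS26, a protein of the mitochondrial lineage, read -0.27, -0.30 and -0.37 (mean -0.31 ± 0.05; adjusted p = 0.0404). These 4 genes lay below 0 in every pool.

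Some genes with low means had pools further apart and did not pass. mRpS24, which in mammals is the counterpart of a bacterial protein of another number, read -0.63, -0.44 and -0.26, a mean of -0.44 ± 0.19 (adjusted p = 0.0537 with limma), the second lowest of all members. mRpS17, a protein that binds ribosomal RNA directly in bacteria, read -0.53, -0.11 and -0.48 (mean -0.37 ± 0.23; adjusted p = 0.0924), with pool 2 apart from the other two. This came from 1 of its 2 features, which read -0.94, -0.07 and -0.72, while the other read -0.12, -0.14 and -0.24 with a mean of -0.17. Between adjusted p values of 0.05 and 0.075 lay 7 members, of which mRpS24, mRpL55, mRpS22 (-0.22), mRpS18C (-0.22) and mRpS18B (-0.19) lay below 0, and mRpS7 and mRpL24 above it. The values beside the threshold thus formed no gap. mRpS24 passed with scaled arrays, array weights, the feature of smallest SD and without exact zeros (adjusted p from 0.0143 to 0.0496 with limma), and mRpS7 with the first 3 of these (from 0.0183 to 0.0496).

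The members with the highest means did not pass either. mRpL37 read 0.59, 0.25 and -0.01, and its mean of 0.28 ± 0.30 (adjusted p = 0.225 with limma) was the highest and its spread the widest of all members. That rank rested on pool 1, without which the mean of mRpL37 was 0.12. mRpS7, whose bacterial counterpart starts assembly of the head of the subunit, read 0.22, 0.22 and 0.21 (mean 0.21 ± 0.01; adjusted p = 0.0573), and all pools lay above 0 within a narrow range. mRpL24, an initiator of large subunit assembly in bacteria, read 0.20, 0.16 and 0.26 (mean 0.21 ± 0.05; adjusted p = 0.07). mRpS29, the counterpart of the mammalian GTP-binding protein DAP3, had 0.36, 0.04 and 0.19 (mean 0.20 ± 0.16; adjusted p = 0.168). The next were mRpL10, of the stalk that binds translation factors (0.16), mRpL50 (0.13) and mRpL20, an early assembly protein in bacteria (0.10), followed in the small subunit by mRpS2 (0.06), mRpS31 (0.04) and mRpS28 (0.03). mRpL12 (-0.04) and mRpL11 (-0.06), parts of the same stalk as mRpL10, lay slightly below 0 and did not pass.

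For 61 of the 65 genes the 95% confidence interval of the mean, from the limma fit, lay within 1.5-fold of no change in either direction. The exceptions were mRpL2, mRpS24 and mRpS17, whose intervals reached down to -0.70, -0.70 and -0.66 log2, and mRpL37, whose interval ran from -0.10 to 0.65. These intervals carry the spread of the mutant pools only, since the control was a single RNA. Among the 52 genes that did not pass, 22 lay below 0 on all arrays and 6 above it.

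Large and small subunit genes were set side by side. Of the large subunit 9 of 44 genes (20.5%) were lower, and of the small subunit 4 of 21 (19.0%), with 0 higher in each. The median of the gene means was -0.09 log2 for the large subunit and -0.16 for the small subunit, a difference (large minus small) of 0.07. By array the large subunit medians were -0.06, -0.09 and -0.14 and the small subunit medians -0.12, -0.16 and -0.17 in pools 1, 2 and 3, which gave differences of 0.06, 0.07 and 0.03. The small subunit had the lower median on each array. No test was made of the difference, because the genes are not replicates. In mammals the proteins named MRPS18A and MRPS30 were found in the large subunit. Moving mRpS18A and mRpS30 there, a step not planned beforehand, left the difference of medians at 0.07 and the calls at 9 and 4. It could not do otherwise, since mRpS18A (-0.05) and mRpS30 (-0.20) lie on opposite sides of both medians and neither was called.

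**Figure D2:**
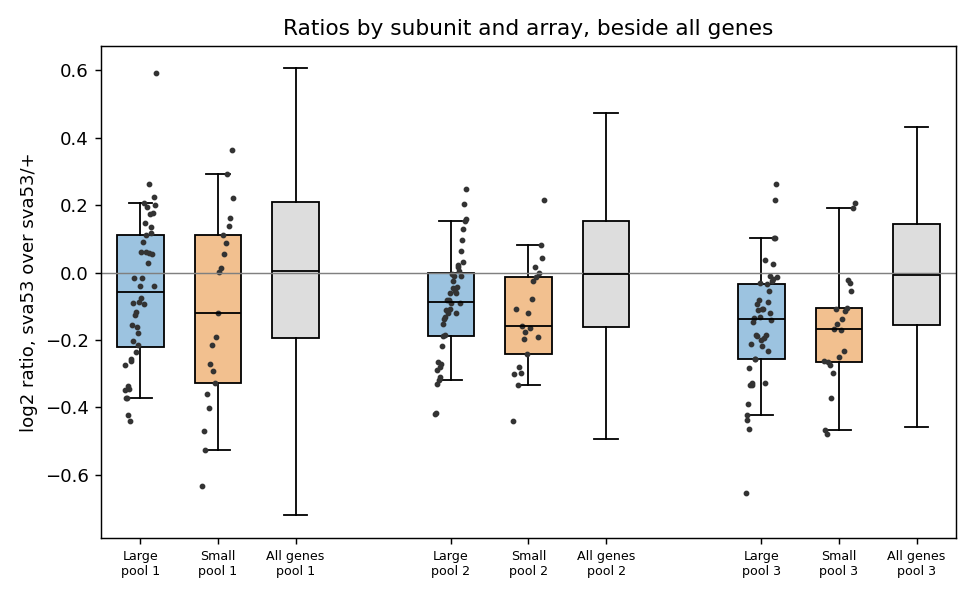
Log2 ratio of sva53 over sva53/+ (vertical axis) in each mutant pool for large subunit genes (blue), small subunit genes (orange) and all 10805 genes (grey). Boxes show quartiles and medians, whiskers the 5th to 95th percentile, and dots single members; both subunits lie below the median of all genes in each pool, with medians between -0.06 and -0.17.

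Numbers in the symbols shared with bacterial proteins (up to 36 in the large and up to 21 in the small subunit) were held by 38 members, of which 8 were lower (21.1%), with a median of -0.11. Higher numbers were held by 27 members, of which 5 were lower (18.5%), with a median of -0.07. In the large subunit the higher numbers had the lower median (-0.15, against -0.08 for shared numbers), and in the small subunit the shared numbers had it (-0.19, against -0.04 for higher numbers). The order of these classes thus differed between the subunits. The numbers are a rough guide, since mRpS24 and mRpS28 are counterparts of bacterial proteins of other numbers in mammals.

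The pools differed in how many members lay below 0. In pool 1 these were 37 of 65 (56.9%), in pool 2 they were 50 (76.9%) and in pool 3 they were 57 (87.7%), while 48.8%, 51.2% and 50.8% of all features tested lay below 0 on the same arrays. The member medians were -0.08, -0.11 and -0.15 in pools 1, 2 and 3. Of the 65 members, 37 (56.9%) were highest in pool 1 and 41 (63.1%) lowest in pool 3, beside 42.2% and 37.7% of all genes. Of the 24 members with mixed signs, 22 were highest in pool 1 and 20 lowest in pool 3, beside 41.7% and 36.5% of all genes with mixed signs. mRpL48 read 0.21, -0.01 and -0.33 (mean -0.04 ± 0.27), and mRpS28 read 0.29, -0.19 and -0.02 (mean 0.03 ± 0.25). These and mRpL37 had the widest spreads among the members. Because pool and array are the same unit here, effects of the pool and of its array or labelling cannot be told apart.

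Pool 1 also stood apart in genes of late egg chambers. The 4 of 12 eggshell markers that were measured lay between -4.73 and -2.87 in pool 1, between -0.89 and 0.50 in pool 2 and between -1.33 and 0.81 in pool 3, and 0 of the 4 passed. The 6 of 8 germ line markers measured had medians of -0.15, -0.04 and 0.004 in pools 1, 2 and 3, and 0 passed. Of 6 muscle markers, a tissue rich in mitochondria, 0 passed, with medians of 0.03, 0.41 and 0.21. In the fat body list 1 of 7 was lower (Lsd-1, -1.71) and in the hemocyte list 2 of 6, beside 7.23% of all features tested. The hemocyte genes were Col4a1 (-1.09) and vkg (-1.04), for basement membrane collagen. Hml (0.06), NimC1 (0.25), Pxn (0.10) and eater (0.08), the others measured, had means above 0 and did not pass. Of the fat body list, Yp1, Yp2 and Yp3 read -1.27, -1.49 and -1.64 in pool 1. Their values ran from -0.29 to 0.26 in pool 2 and from 0.04 to 0.16 in pool 3. The part of these tissues in the members' ratios was not tested. Leaving out pool 1 gave a member median of -0.12, against -0.11 with all pools.

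**Figure D3:**
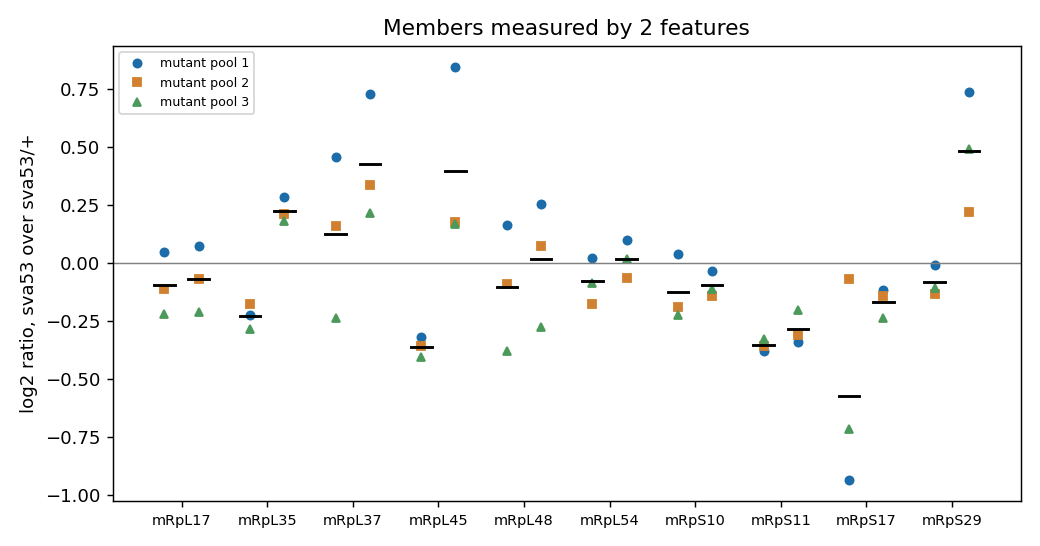
Log2 ratio of sva53 over sva53/+ (vertical axis) of each feature for the 10 members measured by 2 features. Symbols are the 3 mutant pools and bars the means; the features of mRpL35, mRpL45 and mRpS29 lie furthest apart across 0, whereas those of mRpL17, mRpS10 and mRpS11 nearly coincide.

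Where a gene had 2 features, they differed by a median of 0.21 log2, and in 5 of 10 genes they had opposite signs. mRpL45, which in mammals lies at the exit of the peptide tunnel and ties the ribosome to the inner membrane, gave -0.36 on one feature and 0.40 on the other, so its mean of 0.02 describes neither. mRpS29 gave -0.08 and 0.48, and mRpL35 gave -0.23 and 0.22. With the feature of smallest SD in place of the mean, mRpL45 read -0.36 and mRpL35 read 0.22, and both passed (adjusted p = 0.0269 and 0.0444 with limma). That choice favours small p values, since the SD enters the test. For mRpL35 it rested on SDs of 0.0544 and 0.0546. With each feature tested on its own, neither mRpL35 feature passed (adjusted p = 0.0626 and 0.0605 with limma), while the lower mRpL45 feature did (0.0361). Of the 13 genes called lower, 12 rested on 1 feature, and for these no such comparison could be made.

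By the RefSeq annotation, 36 of the 65 genes overlap a neighbouring protein-coding gene, among them 4 of the 13 called lower. Only the genes directly before and after each member in order of start were compared, so other overlaps may be missed. Strand was not considered. mRpL2 (-0.47) overlaps Ufd1 (-0.48), and mRpL9 (-0.34) overlaps Fkbp39 (-0.37), so the ratios of these neighbours were close to those of the members. mRpS16 (-0.41) overlaps ReepB (-0.26), and mRpL51 (-0.37) overlaps PIG-U, which had 0.09. Where the features lie within the genes is not known here, so signals of overlapping genes may be mixed. In the order of protein-coding genes, 0 members lay next to another member.

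Some of the other genes of mitochondrial translation passed. Their shares are to be read beside the 7.23% of all features called lower and 6.62% called higher. bonsai, a small subunit protein gene under another name, had -0.12, -0.13 and -0.12 (mean -0.12 ± 0.01) and did not pass (adjusted p = 0.144 with limma); tko, for another small subunit protein, was not analysed here. Of 10 translation factor genes measured, 2 were lower, 1 was higher and 7 did not pass, with a median of 0.12. mEFTu1 and mEFTu2, elongation factors that deliver aminoacyl-tRNA, fell by 0.31 and 0.29 on the log2 scale. mRRF1, a ribosome recycling factor, rose by 0.38 ± 0.08 (adjusted p = 0.0379). Of 12 mitochondrial aminoacyl-tRNA synthetase genes, 2 were lower (16.7%), 1 was higher (8.33%) and 9 did not pass, with a median of 0.05. PheRS-m (-0.39) and TyrRS-m (-0.35) fell, and AspRS-m rose (0.28).

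In the list for upkeep and transcription of the mitochondrial genome, 1 of 14 genes was lower. This was mldr, a subunit of mitochondrial RNase P, at -0.48 ± 0.02. TFAM (-0.03), which packages mitochondrial DNA, and PolrMT (-0.03), the mitochondrial RNA polymerase, did not pass. Genes of mitochondrial protein import were lower in 5 of 20 and higher in 0, with a median of -0.17. They were the inner membrane translocase gene Tim17b1 (-0.83), Roe1, the nucleotide exchange factor of the import motor (-0.65), Tom7 of the outer membrane complex (-0.53), and Tim10 (-0.38) and Tim9a (-0.29), chaperones of the space between the membranes. Of 5 measured regulators of growth and mitochondrial genes, 0 passed. At an unadjusted p under 0.05 (limma), 2 of them lay lower, Max (-0.22) and Ets97D (-0.17), as did 18.3% of all features tested.

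Subunits of the respiratory chain, part of which assemble with products of the mitochondrial ribosome, were lower in 14 of 53 genes (26.4%) and higher in 0, with a median of -0.19. ND-B17.2 (-0.49) and ND-B16.6 (-0.45) of complex I and ATPsynCF6 (-0.48) of ATP synthase were the lowest of these. The list left out symbols that end in L, read as paralogs. It kept ND-51L1 (-0.40), ND-51L2 (-0.11) and COX6AL2 (-0.03), paralogs by their symbols, which did not pass. Cytosolic ribosomal protein genes, without symbols that end in b or -2 or hold -like, were lower in 6 of 26 (23.1%) and higher in 0, with a median of -0.20. The 26 are a part of such genes only, since others had no feature under a single symbol. This rule kept RpL10Aa, RpS10a, RpL34a and RpL37-1, each one of a pair of gene copies by its symbol, and dropped RpL10Ab (-0.35). The lowest called were RpL10Aa (-0.58), RpL39 (-0.54) and RpL32 (-0.44), and RpS10a had the lowest mean of the list (-1.20 ± 0.63), which did not pass (adjusted p = 0.0618 with limma). Quartiles of the gene means ran from -0.22 to -0.003 for the mitochondrial ribosomal proteins, from -0.28 to -0.11 for the respiratory chain and from -0.31 to -0.04 for the cytosolic ribosomal proteins. No test was made of the differences between the lists.

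**Figure D4:**
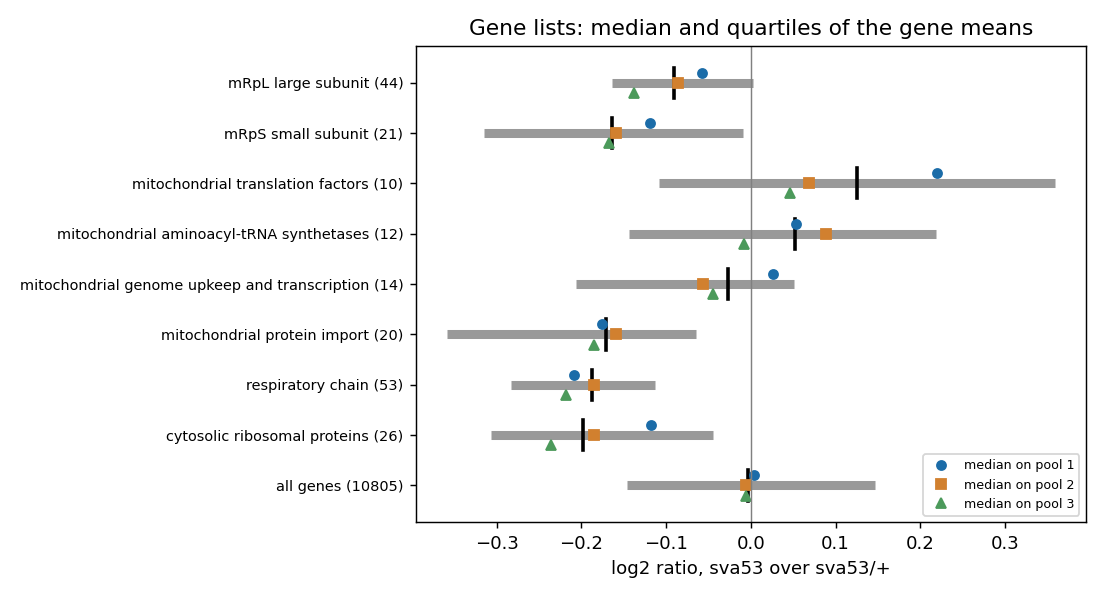
Median (black bar) and quartiles (grey band) of the gene means, as log2 ratio of sva53 over sva53/+ on the horizontal axis, for the mitochondrial ribosomal proteins by subunit, related gene lists and all genes, with the number of genes in brackets. Symbols are the medians in the 3 mutant pools; medians of both subunits (-0.09 and -0.16) lie below that of all genes (-0.003), and those of translation factors (0.12) and aminoacyl-tRNA synthetases (0.05) above it.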

How the data were processed

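Per array, the authors deposited log10 ratios between both channels at 22575 features, made on 3 arrays with Agilent Feature Extraction 7.1 per the submitters' processing notes. The scale was read from the values; how background and dye were corrected is not given in the sources used here. Log10 values were turned in sign and converted to log2 of sva53 over sva53/+. The 636 features at the grid edge, none annotated, were left out, and features of 1 gene were averaged (15415 tested). Testing used R 4.3.3 and limma 3.58.1 (intercept, eBayes, 2-sided), with Benjamini-Hochberg adjustment over all 15415; intervals are at 95%. The test leaves out the spread of the single control RNA, and the number of arrays limits the precision. The array medians were 0, and the array SDs were 0.468, 0.332 and 0.319.

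The members, gene lists and marker lists were chosen with earlier results of these data known. Members named were all called genes, and the 5 highest and 5 lowest means of each subunit. They also held the 3 widest SDs and the 3 widest differences between features. In other lists up to 3 called genes at each end were named. Other names were chosen after their values were seen. Among members these were mRpL11, mRpL12, mRpL17, mRpL54, mRpL55, mRpS10, mRpS18A, mRpS18B, mRpS18C, mRpS22 and mRpS30. Outside them they were TFAM, PolrMT, Max, Ets97D, Tim10, Tim9a, RpS10a, RpL34a, RpL37-1, RpL10Ab and overlapping genes. The same holds for Yp1, Yp2, Yp3, Hml, NimC1, Pxn, eater, ND-51L1, ND-51L2 and COX6AL2. Alternatives changed centring, scaling, prior, array weights, features per gene, exact zeros, threshold, grid trends and arrays. RefSeq names come from assembly GCF_000001215.4; its coordinates served only to find neighbours.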

Additional observations from a re-analysis of the deposited data

How the results depend on the processing

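The member median (-0.11) and the difference of subunit medians (0.07) kept their sign under every alternative run, from -0.12 to -0.08 and from 0.05 to 0.07. A robust prior, single features and removal of exact zeros could not move either value, and centring could not move the difference. The 13 lower calls were all kept with centring, scaling, array weights, single features, the feature of smallest SD and without exact zeros, and 12 of them with a robust prior or without grid trends. Removal of exact zeros left the values of all 13 as they were. So did both choices of feature for the 12 genes with 1 feature. There only the prior and the adjustment over all features could change a call. With array weights, 23 members were lower and 3 higher (16 large and 10 small subunit calls), of 5804 features called in all and 83 genes of the related lists; with the main setting these were 2135 and 32. With the feature of smallest SD, a choice that favours small p values, 3 members were higher, with 3418 features and 51 related genes called. Turned in sign were 5 members: mRpL35 (0.22) and mRpL45 (-0.36), which passed, and mRpS29 (-0.08), mRpL48 (0.02) and mRpL54 (0.02), which did not. Scaling called 1 member higher. At an adjusted p under 0.01, 0 members, features and related genes passed; tested against a fold of 1.2, 46 features and 0 members or related genes did. With any 1 array left out, all counts were 0, from 0 to 0, with 2 arrays leaving fewer degrees of freedom; 16 to 19 members and 10.6% to 15.9% of all features were then lower at an unadjusted p under 0.05. No paired analysis was possible because there is 1 group.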

Other observations

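Features annotated with a mitochondrial ribosomal protein gene and a second gene were not used as members. The pair shared by mRpL47 and Rlb1 had mean log2 ratios of sva53 over sva53/+ of -0.36 and -0.22, and the feature shared by mRpS14 and CG32533 had -0.27; each lay below 0 on all 3 arrays.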
